A study of Mus musculus with 6 samples.

Results

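Fn1, Tnc, Sparc, Spp1, Thbs1, Thbs2, Vcan, Bgn, Fbn1 and Vim are 10 of the 22310 genes in the deposited expression table of a mouse mammary tumor study. They were picked by name as non-collagen genes of a mesenchymal matrix, with Vim, the gene of the intermediate filament protein vimentin, added to them. All 10 were read in all 6 libraries. The study asked how tumor cells that can start metastases, called metastasis-initiating cells (MICs), differ in gene expression from the other tumor cells (non-MICs). The cells came from tumors of MMTV-PyMT mice, in which the promoter of the mouse mammary tumor virus drives the polyoma middle T oncogene in mammary epithelium. The labels give the genotype of both groups as WT beside that model. Cells of adult animals were plated overnight in medium with serum, EGF and insulin, a culture step that both groups share. On the next day MICs were sorted as Lin-CD24+CD90+ cells and non-MICs as Lin-CD24+CD90- cells, with 3 libraries of each and 31467281 to 51759769 reads per library. Lin- means free of stain for Ter119, CD31 and CD45, which mark red cells, endothelium and leukocytes. The replicates of this comparison are described in the paper as independent experiments or tumors, without saying which of these. Whether a library pools several mice, and whether same-numbered libraries came from the same tumor, is not stated in the sources used here, so p-values measure only the spread between these libraries.

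Fibronectin, the product of Fn1, is an adhesive glycoprotein that cells assemble into fibrils through integrins. Tenascin C, SPARC, osteopontin and the thrombospondins are matricellular proteins, which are secreted into the matrix and alter how cells bind to it and signal rather than bearing load. Versican and biglycan are proteoglycans with chondroitin or dermatan sulfate chains, fibrillin 1 builds the microfibrils on which elastic fibers form, and vimentin filaments are the usual cytoskeletal mark of mesenchymal cells. In mammary tumors these genes are best known from stromal fibroblasts, from basal cells and from carcinoma cells in epithelial-to-mesenchymal transition.

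The 250 bases before the RefSeq transcription start of Sparc, Fbn1 and Bgn are shown. These members were chosen because they passed a test in 1 of the fits, edgeR with the replicate block. The windows come from RefSeq on GRCm38.p6, whose promoter table held a window for 8 of the 10 members and none for Fn1 or Thbs1. The Sparc window lies at chr11:55420081-55420330 on the minus strand, that of Fbn1 at chr2:125506439-125506688 on the minus strand and that of Bgn at chrX:73483351-73483600 on the plus strand. By the GENCODE gene positions given below, the Sparc and Fbn1 windows lie within the gene, and that of Bgn lies before its start. Capitals mark matches on either strand to 3 motifs. The first is the TATA box, searched as the letters TATAAA. The next, the CCAAT box, was searched as the letters in its name, and the last, the GC box, as GGGCGG.
Sparc: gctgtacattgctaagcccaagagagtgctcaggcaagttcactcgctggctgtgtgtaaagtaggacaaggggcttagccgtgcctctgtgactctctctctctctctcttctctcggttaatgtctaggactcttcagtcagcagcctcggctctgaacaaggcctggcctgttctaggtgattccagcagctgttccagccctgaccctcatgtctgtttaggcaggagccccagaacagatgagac
Fbn1: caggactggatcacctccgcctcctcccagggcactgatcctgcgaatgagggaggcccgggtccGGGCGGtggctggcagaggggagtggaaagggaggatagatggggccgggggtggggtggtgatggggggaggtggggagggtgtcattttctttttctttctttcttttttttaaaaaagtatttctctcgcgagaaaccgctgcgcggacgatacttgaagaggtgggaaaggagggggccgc
Bgn: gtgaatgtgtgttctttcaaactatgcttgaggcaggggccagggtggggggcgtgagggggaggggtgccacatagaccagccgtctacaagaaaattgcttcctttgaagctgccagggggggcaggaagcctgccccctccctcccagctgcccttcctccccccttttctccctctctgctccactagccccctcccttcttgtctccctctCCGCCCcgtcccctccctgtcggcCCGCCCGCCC
The Sparc window held none of these letters, Fbn1 held 1 GC box and Bgn held 3, a pair of which overlap. By comparison, 32.7% of 32851 windows of the same length in the table held a GC box, 33.8% a CCAAT box and 12.4% a TATA box. Among windows that are not shown, those of Vim, Tnc and Thbs2 held the TATA letters, as did 1 of the 2 Spp1 windows. Counted from the transcription start, the match began at -32 in Vim, -211 in Spp1 and -126 in Thbs2. In the 2 Tnc windows it began at -126 and -205. The AP-1 letters TGANTCA, which 6.75% of windows held, were absent from the windows of all 8 members. So were the TEAD letters GGAATG, which 12.6% of windows held. The SMAD letters GTCTAG (7.11% of windows) were found once in the Sparc window. E-box letters, CANNTG, which 66.2% of windows held, were found in the Sparc and Bgn windows and not in that of Fbn1. A match describes the letters and is no evidence of binding.

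Per length, the members spanned a wide range of levels. On the scale of reads per kilobase of annotated exon in 1000000 reads (RPKM), the mean level over the 6 libraries was 1100 for Thbs1, 832 for Fn1, 460 for Spp1, 445 for Tnc, 139 for Vim and 85.2 for Sparc. It was 9.05 for Bgn, 3.13 for Vcan, 1.37 for Fbn1 and 0.656 for Thbs2. Among 15538 protein-coding genes ranked on this mean, Thbs1 stood at 15, Fn1 at 25, Spp1 at 59 and Tnc at 66, while Thbs2 stood at 10981. Neighbours in this order overlapped in range over the libraries, apart from Sparc and Bgn. The lowest Sparc level was 22.5 and the highest Bgn level 21.6.

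In the comparison of MICs with non-MICs, all 10 members had a mean difference above 0, as 10229 of all 22310 genes did. No member passed the test. The replicate number held a larger share of the sum of squares of each member than the population did. Over all genes the median shares were 66.4% and 9.02%. The number has more levels than the population, so it can take a larger share by that alone, and the shares were not set per level. No member differed by more than 0.50 in the second pair of libraries, while 5 did in the first and 5 in the third. Over all genes the shares were 45.6% in the second pair, 49.1% in the first and 27.7% in the third. Fbn1 and Bgn had the highest mean differences, 1.32 and 1.10 on the log2 scale, and Sparc followed at 0.93. Limma on log2(value + 1), fitted over all genes without a block, gave adjusted p-values of 1.00 for all 10 members and called 0 of 10, as it called 0% of all 22310 genes. 322 of all genes, and no member, had an unadjusted p-value under 0.05. No member had every MIC library above every non-MIC library, an arrangement that 2.69% of all genes showed. With the replicate number as a block, which takes the differences within same-numbered pairs, limma still called 0 of the 10, against 0.13% of all genes. DESeq2 with the same block on the recovered reads also called 0 of 10, against 0.596% of all genes. edgeR with the block called 3 of 10 as higher in MICs, Fbn1, Bgn and Sparc, against 1.04% of all genes called in that direction, and without the block it called none of them. These 3 genes are also the members whose pair differences had the widest SD, from 1.06 to 1.32.

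**Figure D1:**
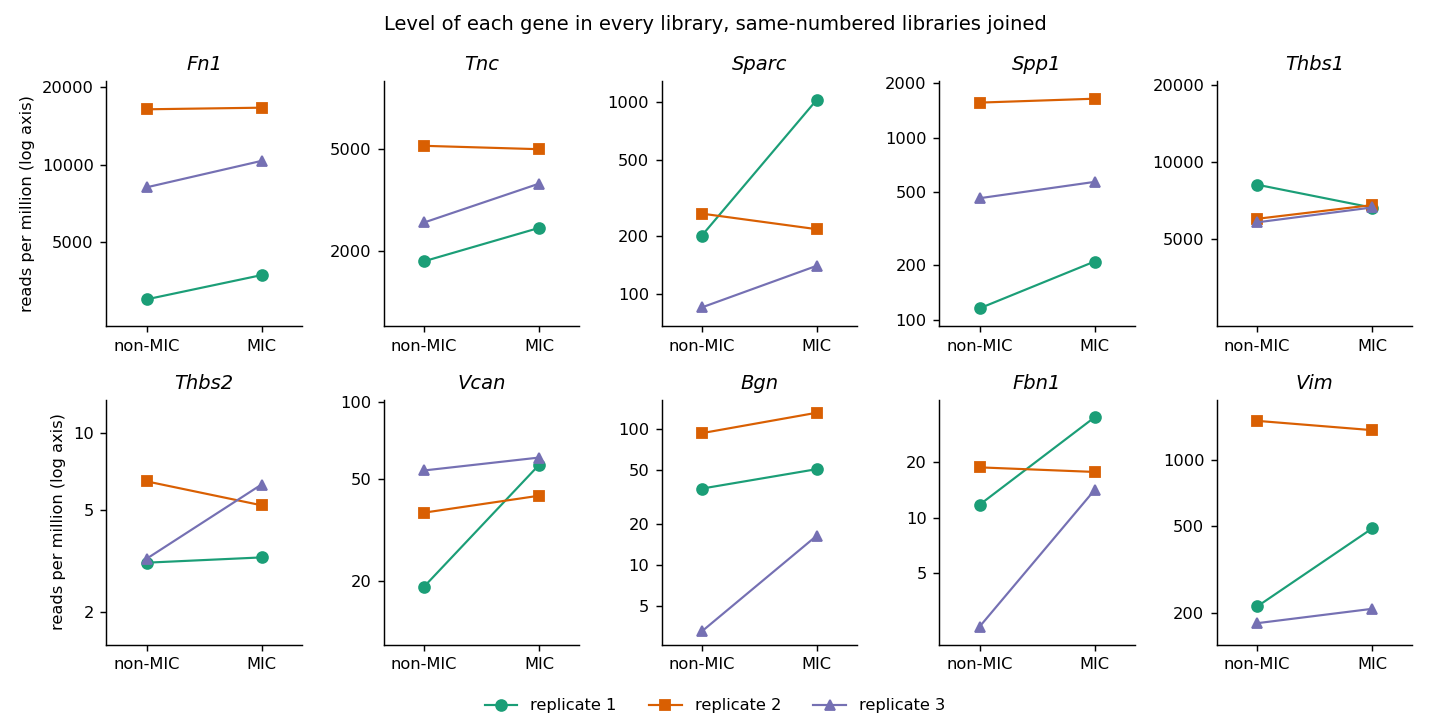
Each panel shows 1 gene, with the level in non-MIC and MIC libraries in CPM (reads in 1000000) on a log axis and a line joining libraries of the same replicate number. Fn1, Tnc, Spp1, Bgn and Vim are highest in both libraries of replicate 2, and the steep lines are those of Sparc and Vcan in replicate 1, of Bgn in replicate 3 and of Fbn1 in both of these replicates.

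Levels are given as CPM, reads of a gene in 1000000 recovered reads of its library. Positions are those of the whole gene on GRCm38, and the values sum over its exons. Fn1 (ENSMUSG00000026193, chr1:71585520-71653200, minus strand) was read at 3715, 16674 and 10348 CPM in MIC replicates 1, 2 and 3 and at 2988, 16435 and 8162 in non-MIC replicates 1, 2 and 3. The order of the replicates was the same in both populations and the groups overlapped fully. The differences within pairs, MIC minus non-MIC on the log2 scale, were 0.31, 0.02 and 0.34, with a mean of 0.23 and an SD of 0.18. With the block, limma placed the fold change between -0.40 and 0.85 (95% confidence interval, adjusted p = 0.789). The replicate number held 98.1% of the sum of squares of this gene over the 6 libraries and the population 1.37%.

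Tnc (ENSMUSG00000028364, chr4:63959785-64047015, minus strand), a matricellular glycoprotein of wound and tumor stroma, had 2472, 5005 and 3677 CPM in MICs and 1833, 5159 and 2595 in non-MICs. It followed the same order as Fn1, with replicate 2 highest and replicate 1 lowest in both populations. Pair differences were 0.43, -0.04 and 0.50, and the mean of 0.30 had a 95% interval from -0.24 to 0.83 with the block (limma, adjusted p = 0.662).

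Sparc (ENSMUSG00000018593, chr11:55394500-55423183, minus strand), whose product binds collagen and calcium, had 1028, 218 and 140 CPM in MICs and 202, 262 and 85.2 in non-MICs. MIC replicate 1 stood far above the other 5 libraries, and without it the populations overlapped. The pair differences were 2.35, -0.27 and 0.72, that is 5.10-fold, 0.830-fold and 1.65-fold, with a mean of 0.93 and an SD of 1.32. edgeR with the block gave an adjusted p of 0.0072 over all genes, limma with the block 0.418 and DESeq2 with the block 0.605. Without pair 1, the edgeR value was 1.00 and the log2 fold change 0.21.

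Spp1 (ENSMUSG00000029304, chr5:104435118-104441050, plus strand), which encodes the phosphoprotein osteopontin, a ligand of integrins and CD44, had 209, 1633 and 571 CPM in MICs and 116, 1555 and 465 in non-MICs. Each MIC library was above its partner, yet the highest of the 6 libraries was 14.1-fold the lowest and the populations overlapped. The differences were 0.85, 0.07 and 0.30, with a mean of 0.41 and an SD of 0.40. Its interval with the block ran from -0.02 to 0.83 (limma, adjusted p = 0.455).

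Thbs1 (ENSMUSG00000040152, chr2:118111876-118127133, plus strand), an activator of latent TGF-beta and ligand of CD36 and CD47, was the steadiest member at 6640, 6794 and 6650 CPM in MICs and 8156, 6008 and 5820 in non-MICs. The highest library was 1.40-fold the lowest. Pair 1 differed by -0.30 and the other two pairs by 0.18 and 0.19, so the mean was 0.02 with an interval from -0.59 to 0.64 with the block (limma, adjusted p = 0.982).

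Thbs2 (ENSMUSG00000023885, chr17:14665500-14694235, minus strand), the related thrombospondin, was the scarcest member, with 106, 164 and 325 recovered reads in MICs and 103, 214 and 161 in non-MICs. This came to 3.27, 5.21 and 6.28 CPM in the MIC libraries and 3.11, 6.46 and 3.23 CPM in their partners. The pairs differed by 0.07, -0.31 and 0.95, and the mean of 0.24 had an interval from -0.39 to 0.86 with the block (limma, adjusted p = 0.774). The direction in pair 2 was opposite to that in pair 3.

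Vcan (ENSMUSG00000021614, chr13:89655312-89742509, minus strand), which encodes the large hyaluronan-binding proteoglycan versican, had 57.0, 43.2 and 60.8 CPM in MICs and 19.1, 37.1 and 54.1 in non-MICs. All 3 MIC libraries were above their partners, and non-MIC replicate 1 was the low library. The differences were 1.57, 0.22 and 0.17, with a mean of 0.65 and an SD of 0.80. The adjusted p was 0.418 in limma, 0.073 in edgeR and 0.264 in DESeq2, each with the block. This gene had the highest share of its sum of squares between the populations among the members, 33.2%, beside 33.9% between the replicate numbers.

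Bgn (ENSMUSG00000031375, chrX:73483602-73495933, plus strand), the gene of the small leucine-rich proteoglycan biglycan, had 50.6, 131 and 16.4 CPM in MICs and 36.4, 93.0 and 3.25 in non-MICs. It varied most over the libraries, 40.5-fold from lowest to highest, with replicate 2 highest and replicate 3 lowest in both populations. MICs were higher in each pair, by 0.48, 0.50 and 2.33 on the log2 scale, or 1.39-fold, 1.41-fold and 5.06-fold. The mean of 1.10 had an SD of 1.06 over the pairs. edgeR with the block gave an adjusted p of 9.05e-05, limma 0.309 and DESeq2 0.427. Without pair 3 the edgeR value was 0.252 and the log2 fold change 0.50, and without pair 1 it was 0.0024.

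Fbn1 (ENSMUSG00000027204, chr2:125300594-125507993, minus strand), which encodes fibrillin 1, had 35.1, 17.7 and 14.1 CPM in MICs and 11.7, 18.7 and 2.54 in non-MICs. MIC replicate 1 was the highest library, non-MIC replicate 3 the lowest, and the replicate 2 libraries were close to each other. The differences were 1.58, -0.08 and 2.46, or 2.99-fold, 0.944-fold and 5.54-fold, with a mean of 1.32 and an SD of 1.29. edgeR with the block gave an adjusted p of 1.81e-06, limma 0.308 and DESeq2 0.410. The edgeR value was 0.0815 without pair 1 and 0.0854 without pair 3. Without pair 2, limma with the block gave an adjusted p of 0.0073 and a log2 fold change of 2.02.

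Vim (ENSMUSG00000026728, chr2:13573927-13582826, plus strand) had 487, 1362 and 210 CPM in MICs and 215, 1501 and 181 in non-MICs. Replicate 2 was highest in both populations and the groups overlapped. The pair differences were 1.18, -0.14 and 0.22, with a mean of 0.42, an SD of 0.68 and an interval from -0.08 to 0.92 with the block (limma, adjusted p = 0.504). The replicate number held 92.5% of its sum of squares.

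**Figure D2:**
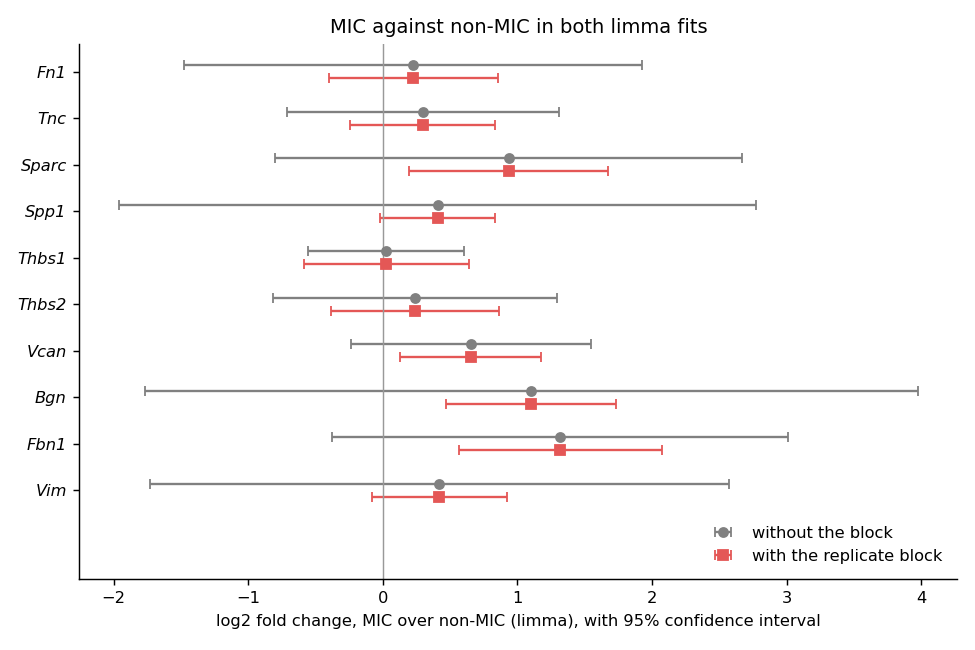
Points give the limma log2 fold change of MICs over non-MICs for each gene on the x axis, and bars its 95% confidence interval before adjustment, without (grey) and with (red) the replicate block. All 10 points lie above 0 and every grey bar crosses 0. The red bars of Sparc, Vcan, Bgn and Fbn1 do not cross 0, although none of these passed the adjusted test. With the block, these 4 members had an unadjusted limma p-value under 0.05, as did 2501 of all 22310 genes.

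The pairs differed from each other in which members they moved. MICs were higher for 9 of 10 members in pair 1, for 5 in pair 2 and for all 10 in pair 3. Over all 22310 genes the counts were 10091, 11943 and 7986. The median difference of the members was 0.66, -0.01 and 0.42, beside -0.02, 0.04 and -0.05 for all genes. Fn1, Spp1, Vcan and Bgn, 4 of the 10, were higher in all 3 pairs, an arrangement that 12.5% of all genes showed. No member was lower in all 3 pairs, as 18.8% of all genes were. In pair 3, the deepest libraries of both populations, 4 of the 9 members with a mean of at least 10 CPM differed by more than 0.5, while 3.19% of the 9275 genes at that level did. In pair 1 it was 5 of these 9 members, beside 31.7% of the genes, and in pair 2 none, beside 27.1%.

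**Figure D3:**
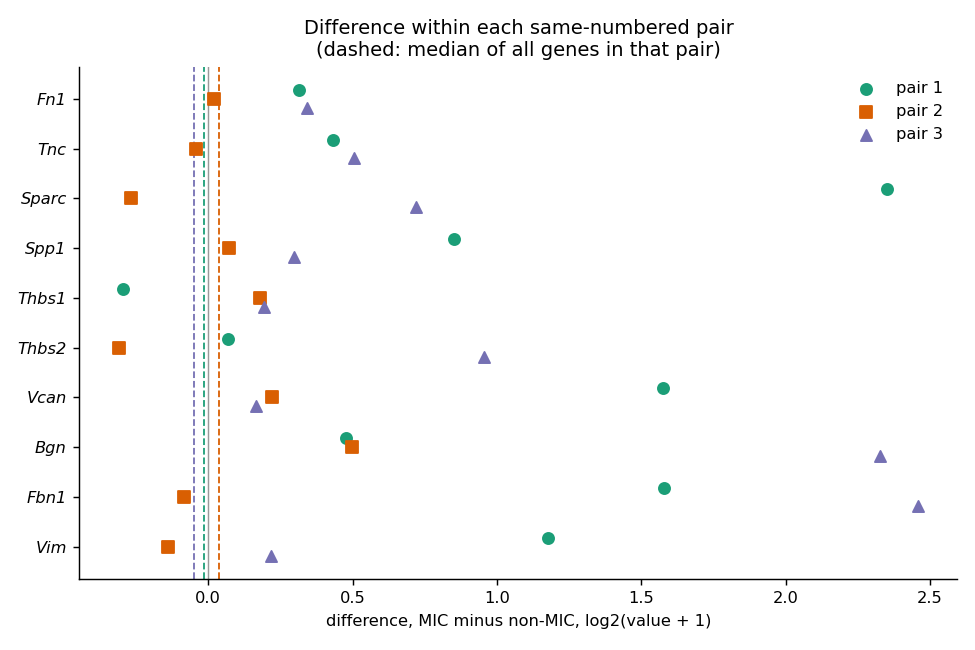
For each gene on the y axis, the 3 points give the difference in log2(value + 1) of the MIC library minus the non-MIC library with the same number, and the dashed lines give the median of all genes in each pair. The points of pair 2 stay within 0.50 of 0, while those of pair 1 reach 2.35 for Sparc and those of pair 3 reach 2.46 for Fbn1.

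Most of the spread of the members lay between replicate numbers, which have more levels than the population. The number held a median of 71.9% of the sum of squares of log2(value + 1) over the members and the population 7.07%, beside 66.4% and 9.02% over all genes. The SD over the 6 libraries had a median of 1.13 for the members, against 0.59 for all genes and 0.34 for the genes with a mean of at least 10 CPM. For 5 members, Fn1, Tnc, Spp1, Bgn and Vim, both libraries of replicate 2 were the highest of the 6. For Fn1, Tnc and Spp1 both libraries of replicate 1 were the lowest, and for Sparc, Bgn and Vim both of replicate 3. Over all genes, 43.4% had a same-numbered pair as their 2 highest libraries and 41.9% as their 2 lowest, shares near the 5 and 6 of the 10 members.

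**Figure D4:**
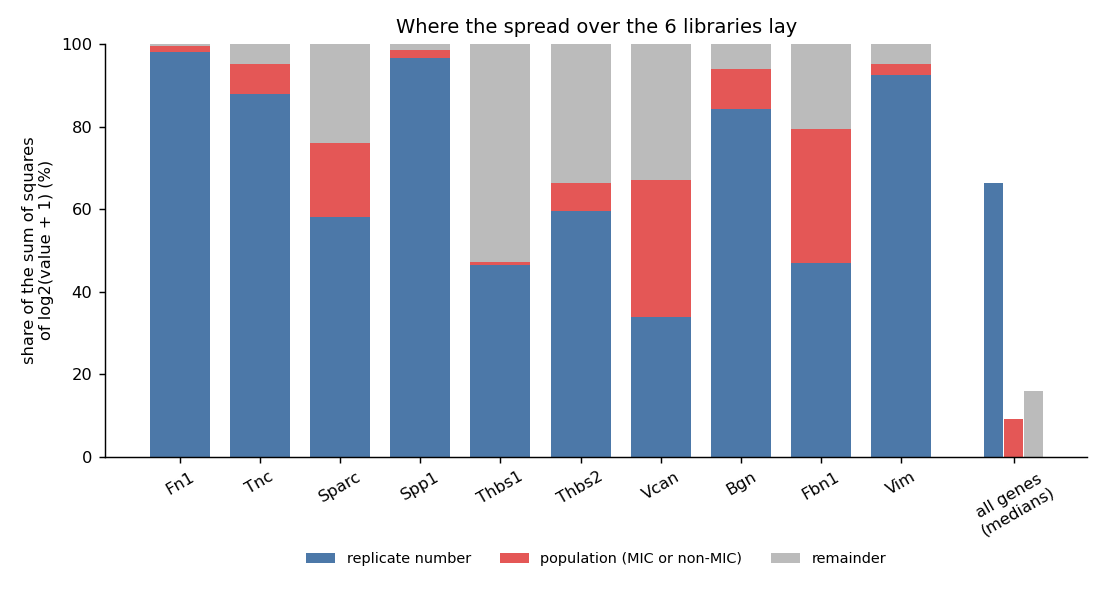
Stacked bars split each gene's sum of squares of log2(value + 1) over the 6 libraries, in percent, into the replicate number, the population and the remainder; the 3 bars at the right are medians over all genes and need not add up to 100%. Fn1, Spp1 and Vim are nearly all replicate number, at 98.1%, 96.5% and 92.5%, and Vcan and Fbn1 have the largest shares for the population, 33.2% and 32.4%.

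Genes of the same roles that are not members were read in the same fits. Of 20 further matricellular genes in the table, limma with the block called 1 as higher in MICs and none as lower, and their median log2 fold change was 0.24, beside -0.04 for all genes. That gene was Postn, encoding periostin, with 10688, 572 and 1592 reads in MICs and 1574, 109 and 322 in non-MICs. Its differences in the 3 pairs were 2.79, 2.46 and 2.25, and its mean of 2.50 had an adjusted p of 3.2e-05. The next in this list were Fstl1, a follistatin-like relative of Sparc, with differences of 2.53, 0.25 and 2.03 (limma with the block, adjusted p = 0.113), and Smoc2, with 3.07, 0.33 and 2.60 (adjusted p = 0.377). Smoc2 had only 48, 11 and 39 reads in MICs and 5, 9 and 5 in non-MICs. edgeR with the block called Postn, Fstl1 and Smoc2 as higher.

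Of 16 microfibril and elastic fiber genes, none was called in limma, edgeR or DESeq2 with the block. Ltbp3, which binds latent TGF-beta, differed by -0.51 (limma with the block, adjusted p = 0.418) and Fbln5 by 0.58 (adjusted p = 0.440). Of 15 further proteoglycan genes limma with the block called none, although their median was 0.62. Ogn, encoding osteoglycin, had differences of 2.42, 1.77 and 1.07 (adjusted p = 0.133) and Dcn, encoding decorin, 1.14, 0.33 and 3.24 (adjusted p = 0.418). edgeR with the block called both as higher, and DESeq2 with the block called Ogn.

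Of 16 receptors of these proteins, limma with the block called none and edgeR with the block 2. These were Itgb3, the integrin subunit that binds osteopontin and vitronectin with Itgav, with a mean difference of 0.68, and Itga5, the fibronectin receptor subunit, with pair differences of 2.80, -0.12 and 1.12. Among 16 genes that build chondroitin sulfate chains, edgeR with the block called Chsy3, at 64, 42 and 39 reads in MICs and 14, 8 and 17 in non-MICs, and limma with the block called none. Chst12, a sulfotransferase, differed by 0.50 (limma with the block, adjusted p = 0.423). None of 6 proteases that cleave versican was called with the block by any of the 3 tools, the lowest limma p-values being those of Adamts4, at 0.51, and Adamts15, at -0.51 on the log2 scale. None of 6 partners or relatives of vimentin was called either. Des had 0 to 9 reads per library, and Synm differed by 0.72 (limma with the block, adjusted p = 0.460).

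The sorted gene and the markers of other cell types bear on these values. Thy1, which encodes CD90, had 1399, 271 and 1117 reads in MICs and 16, 20 and 18 in non-MICs, as the gate requires, and Cd24a differed by -0.01. The 6 luminal and epithelial markers summed to between 6602 and 20328 CPM in all libraries. Their sum in the MIC library was 0.845-fold, 0.791-fold and 1.05-fold that of its partner in pairs 1, 2 and 3. In these pairs 1, 1 and 4 of the 6 were higher in MICs, and 0 of the 6 had a mean difference above 0. Of the 9 basal markers, limma with the block called 5 as higher in MICs, Acta2, Cnn1, Myh11, Krt5 and Mylk. Their list summed to 12259, 697 and 2063 CPM in MIC replicates 1, 2 and 3 and to 4144, 690 and 1347 in their non-MIC partners, so that replicate 1 was high in both populations and MIC replicate 1 most of all. That is the library in which Sparc and Fbn1 were highest. The sum is carried by the abundant markers, and the median log2 difference over the 9 was 1.94, 1.48 and 1.18 in pairs 1, 2 and 3, with 9, 6 and 9 of them higher in MICs. The part of basal cells in the results for Sparc and Fbn1 was not tested.

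The 10 fibroblast markers summed to 62.0, 19.4 and 58.1 CPM in MICs and 33.2, 21.2 and 17.0 in non-MICs. The ratio within pairs was 1.87, 0.913 and 3.42, beside 2.99, 0.944 and 5.54 for Fbn1 and 1.39, 1.41 and 5.06 for Bgn. Single markers differed from the sum, with a median log2 difference of -0.17 and 4 of 10 higher in MICs in pair 1, 0.13 and 7 of 10 in pair 2, and 1.63 and all 10 in pair 3. Of these markers 3 are also in the proteoglycan and microfibril lists. Dpt had 0 to 3 reads, Lum 0 to 14 and Pdgfra 72 to 376 reads, and 5 of the 10 markers had more than 10 reads in every library. With the block, edgeR called 2 of the 10 as higher in MICs, DESeq2 1 and limma 0. Over all 22310 genes these tools called 232, 110 and 27 as higher. The part of fibroblast RNA in the differences of Fbn1 and Bgn was not tested. In bulk libraries fewer cells of a type and less RNA per cell cannot be told apart.

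The 6 pericyte markers summed to between 80.8 and 392 CPM. Their sum in the MIC library was 1.98-fold, 1.41-fold and 1.41-fold that of its partner in pairs 1, 2 and 3. In these pairs 4, 6 and 4 of the 6 were higher in MICs, and only 2 had more than 10 reads in every library. Here edgeR with the block called Mcam and Cspg4, and Rgs5 had 0 to 2 reads. Leukocyte markers, 6 of 8 in the table, summed to between 5.88 and 58.5 CPM, and their sum was highest in both libraries of replicate 2. Only 3 of these 6 had more than 10 reads in every library. Most of the sum in those 2 libraries was Lyz2, a macrophage gene. Lyz2 had 1470 and 789 reads in them and 29 to 210 in the others. The part of leukocytes in the members' levels in replicate 2 was not tested. Endothelial markers, 5 of 6 in the table, stayed between 0.454 and 1.48 CPM in sum.

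**Figure D5:**
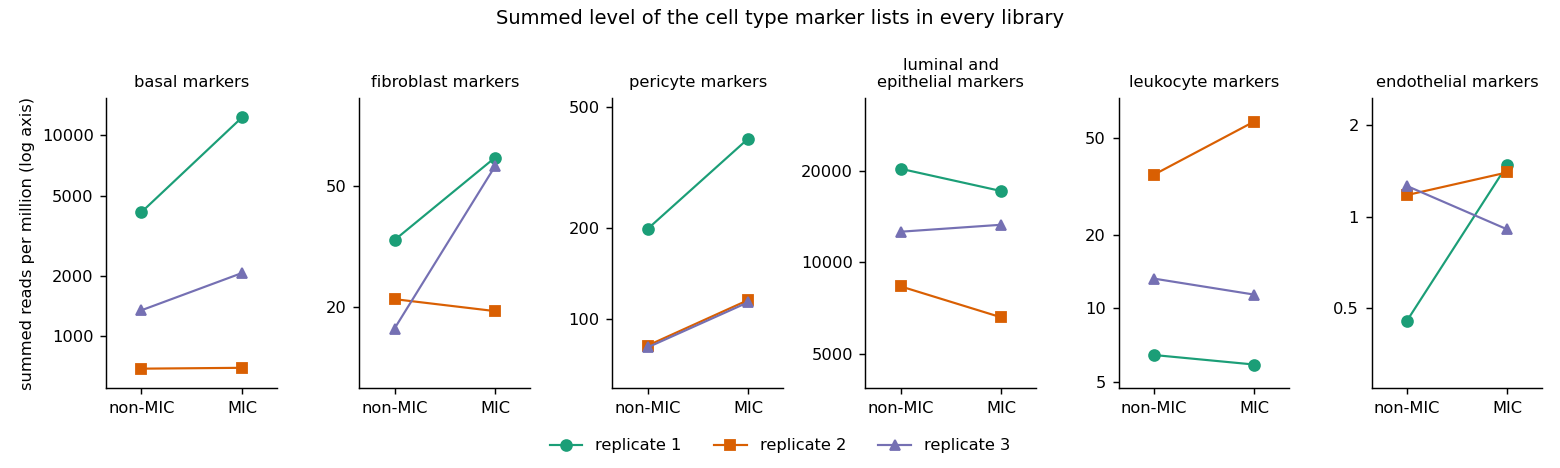
Each panel shows the summed level of 1 marker list in non-MIC and MIC libraries, in CPM on a log axis, with same-numbered libraries joined. Basal markers are highest in replicate 1, leukocyte markers in replicate 2, and the fibroblast sum is 17.0 in the non-MIC and 58.1 in the MIC library of pair 3, and 33.2 and 62.0 in those of pair 1.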

How the data were processed

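Stranded mRNA libraries of 3 MIC and 3 non-MIC samples were made and sequenced by the authors. The deposited values are a signal: gene counts that the authors scaled by library size, each library summing to 35000000 within rounding, without pooling of replicates. The paper's methods name Bowtie2 and samtools on the mouse transcriptome (GRCm38), and the submitters' processing notes name STAR and HTSeq. In each library the values step by a fixed amount, the worth of 1 read, and 99.97% to 100.0% of values came out within 0.01 of a whole number of reads after division by it. The recovered reads numbered 31467281 to 51759769 per library. They set the counting error only, since reads were not collapsed by molecular identifiers. Levels in CPM were computed from the recovered reads. Symbols, positions and exon lengths came from GENCODE release M21, which held 22161 of 22310 identifiers, with older symbols matched through RefSeq synonyms. The exons of Fn1, Thbs1, Fbn1 and Tnc overlap genes on the opposite strand and those of Spp1 a gene on the same strand, each of which had at most 188 reads in a library.

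log2(value + 1) was tested with limma 3.58.1 (R 4.3.3), which used a variance trend and no block, over all 22310 genes with Benjamini-Hochberg adjustment and a threshold of 0.05. The pseudocount understates changes of low genes. No filter was added, since the table lists genes with a value in at least 3 libraries. As alternatives for the recovered reads, the quasi-likelihood test of edgeR 4.0.16 and the Wald test of DESeq2 1.42.0 were used. The fits of limma, edgeR and DESeq2 were tried on simulated counts, and the outcome is not given here. Other alternatives were a lower (0.1) and a higher (10) pseudocount, leaving out genes below the median mean, scaling by TMM factors, no variance trend, leaving out each library or pair, and the replicate block. The replicate numbers are shared by both populations, and after removal of group means, libraries sharing number 1, 2 or 3 correlated at 0.573, 0.668 and 0.746 over all genes, beside a mean of -0.33 for different numbers. The numbers were therefore taken as pairs. TMM factors with the block, and edgeR with the block leaving out each pair, were added after seeing the data.

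The 10 members and the lists were chosen with earlier results of these data known. Besides the members, Thy1 and Cd24a, the text names from each matrix list the genes called by limma with the block and the 2 others with the smallest p-value in it, and from the marker lists genes above 10 reads in every library. Acta2, Cnn1, Myh11, Krt5, Mylk, Mcam and Lyz2 are among these, and Dpt, Lum, Rgs5 and Cspg4 were named after their values were seen. Wisp3, Spock3, Mfap4, Hapln1, Cldn5, Cd3e, Hba-a1, Hbb-bs and Alas2 were listed and are not analysed here, and some other listed markers are not reported here. Promoter windows are RefSeq's on GRCm38.p6, of which the 250 bases before the start were used. Figures were drawn with matplotlib 3.10.9 in Python 3.11.15.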

Additional observations from a re-analysis of the deposited data

How the results depend on the processing

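Without the replicate block, limma called 0 genes and 0 members under every alternative of pseudocount, filter, trend, scaling and left-out library, edgeR called 0 (295 genes at an unadjusted p under 0.05), and DESeq2 called 1 gene and no member. With the replicate block, the number of genes called was 29 in limma, 32 in limma with TMM factors, 133 in DESeq2 and 315 in edgeR. Leaving out pair 1, 2 or 3, limma with the block called 11, 59 and 0 genes and edgeR with the block 33, 489 and 783. Members called with the block numbered 0 in limma, with or without TMM factors, 0 in DESeq2 and 3 in edgeR. Without pair 2, limma with the block called 1 member, Fbn1. edgeR with the block called 1 member without pair 1 (Bgn), 4 without pair 2 (Sparc, Vcan, Fbn1 and Bgn) and 2 without pair 3 (Sparc and Vcan). Of 230 values of the members' log2 fold changes under an alternative, 203 kept their direction and their side of the threshold, 11 passed it and 16 turned negative. Leaving out 1 library without the block, the fold change ranged from -0.28 to 2.13 for Bgn, from -0.43 to 0.83 for Fn1, from -0.55 to 1.32 for Spp1, from -0.064 to 0.18 for Thbs1, from -0.035 to 0.71 for Tnc and from -0.28 to 1.39 for Vim. It stayed above 0 for Sparc (0.08 without MIC replicate 1 to 1.52 without MIC replicate 3), Fbn1 (0.47 without non-MIC replicate 3 to 1.91 without non-MIC replicate 2), Vcan (0.24 without non-MIC replicate 1 to 0.99 without non-MIC replicate 3) and Thbs2 (0.04 without MIC replicate 3 to 0.58 without non-MIC replicate 2). With the block, Thbs1 stood at -0.052 without pair 2 and at -0.060 without pair 3 (-0.046 in edgeR), and Thbs2 at -0.12 without pair 3 (-0.11 in edgeR). The cause of these changes was not tested. Of the other scalings and tools with all 6 libraries, DESeq2 moved the median of all genes most, by 0.05 on the log2 scale. The rule for outlying samples needs 4 samples a group, so it could not be applied to these libraries. Counting error is small for most members, and for Thbs2, at 103 to 325 reads, it is the largest.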
